A study of Canis lupus familiaris with 69 samples.

Results

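MKI67-high and MKI67-low normal diestrus endometria were compared in the healthy dogs of a canine endometrium array series. The 21 dogs labelled as normal diestrus were ranked by their own log2 level of MKI67, the gene of the proliferation antigen Ki-67, and the 7 highest and 7 lowest dogs were selected on that measured level, so that 14 of 21 diestrus dogs, of 69 dogs in the series, entered the description and the 7 dogs between them served as a middle set. MKI67 was represented by a single probe set. At the upper limit the last dog inside the MKI67-high set was dog 6 with a log2 level of 9.18 and the first dog outside it was dog 122 with 8.95. At the lower limit the last dog inside the MKI67-low set was dog 7 with 6.74 and the first dog outside it was dog 97 with 7.06. Because MKI67 chose the dogs, every difference between the MKI67-high and MKI67-low sets given here is a description without a test.

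Total RNA of endometrium was hybridised to 1 Affymetrix Canine Gene 1.0 ST array for each dog, and the values are log2 levels. The diestrus dogs were healthy by the labels and, according to the study's methods, sampled in early diestrus. The same methods count 1 of these 21 dogs as given progesterone compounds earlier, and the labels do not tell which dog this was. The other dogs of the series had pyometra (n = 17), a bacterial infection with pus in the uterus, cystic endometrial hyperplasia (CEH, n = 16), an overgrowth of cystic glands, or mucometra (n = 15), a uterus filled with mucus. The mucometra dogs are titled and described so in the labels but carry Hemometra, blood in the uterus, in the diagnosis field, and the titles were followed. The CEH and mucometra dogs were in diestrus or anestrus, most pyometra dogs were in diestrus, and some dogs of each disease group had also been given progesterone compounds. Breed and age are not in the labels. The endometrium was dissected from whole uterine tissue after histology and the cell types were not separated.

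In the bitch, the corpora lutea secrete progesterone through all of diestrus whether or not the animal is pregnant. Under estrogen the endometrial glands and surface epithelium multiply and gain progesterone receptor, and under progesterone the glands grow on, then become secretory and stop dividing, while the stroma takes up hormone signals and passes growth factors to the epithelium. Ki-67 is present in the nuclei of cells in every phase of the division cycle except the resting state.

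MKI67 ranged widely among the healthy dogs. The MKI67-high dogs 141, 148, 157, 30, 110, 118 and 6 had MKI67 log2 levels of 10.45, 10.32, 10.18, 9.73, 9.65, 9.53 and 9.18. In the MKI67-low dogs 7, 144, 170, 120, 25, 79 and 119 the levels were 6.74, 6.52, 6.21, 6.18, 5.88, 5.76 and 5.51. The set means were 9.86 ± 0.46 in MKI67-high and 6.11 ± 0.43 in MKI67-low diestrus (SD, n = 7 each), with a mean of 7.66 ± 0.64 in the 7 dogs between them. The diseased dogs overlapped both sets, with lowest, median and highest levels of 5.48, 8.60 and 9.75 in pyometra, 5.15, 6.58 and 10.11 in CEH, and 5.26, 5.86 and 7.87 in mucometra.

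**Figure D1:**
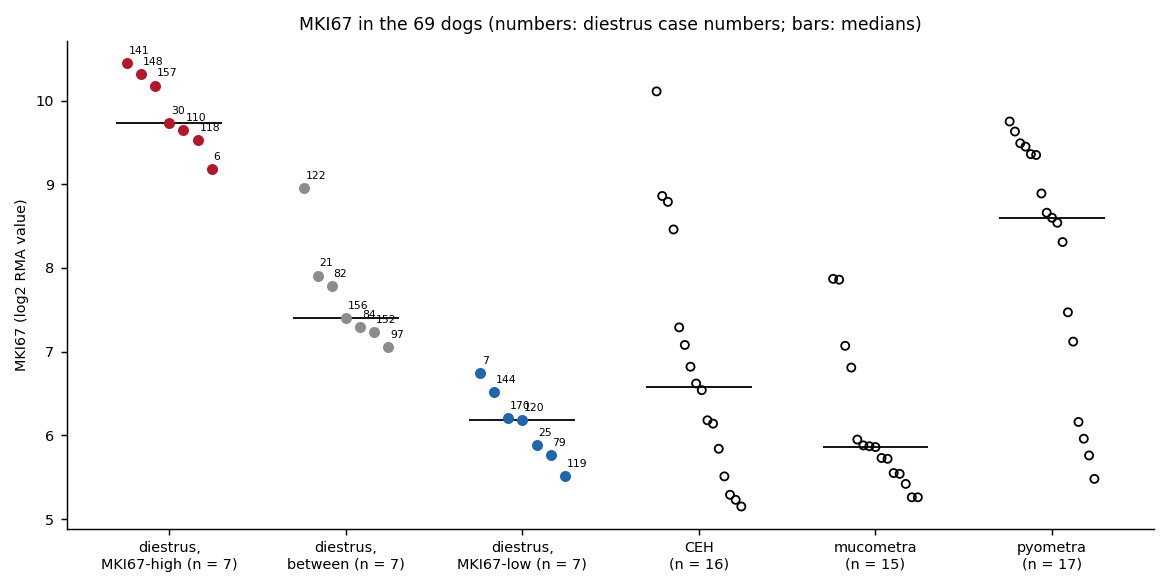
MKI67 log2 level (vertical axis) in each of the 69 dogs by group, with bars at the group medians and case numbers on the diestrus dogs. The 7 MKI67-high diestrus dogs lie between 9.18 and 10.45 and the 7 MKI67-low dogs between 5.51 and 6.74, and the diseased groups span much of the same range.

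Case numbers of the 2 sets interleaved, from 6 to 157 in MKI67-high and from 7 to 170 in MKI67-low dogs. Ranking by the mean of the G2 and mitosis list instead of MKI67 returned the same 7 high and the same 7 low dogs. Within the MKI67-low set 2 dogs stood apart. The counts over all genes, and many but not all of the lists and genes below whose values turned on these dogs, are also given without them. Dog 7 combined low cell cycle levels with PGR, DMBT1, KIT and CLDN10 levels above those of every MKI67-high dog, and dog 25 had ATP12A and NDRG1 levels far above those of the other low dogs. The glandular keratin KRT18 and the stromal proteoglycan LUM were measured in all 14 dogs, at log2 levels of 11.28 to 12.50 and 8.14 to 11.36, and so was the muscle gene DES, at 7.72 to 10.78.

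A gene was counted as higher when all 7 MKI67-high dogs lay above all 7 MKI67-low dogs and the means differed by at least 1 log2 unit (2-fold), and as lower in the mirrored case. By this rule 228 of 15946 genes (1.43%) were higher and 37 (0.232%) were lower in MKI67-high diestrus, and the median difference over all genes was -0.02. Of the higher genes, 91 belonged to the S phase or the G2 and mitosis list and 137 to neither, while no gene of the 2 lists was lower. In bulk tissue, more cells of a type and more RNA per cell cannot be told apart, here or in any later result. The 7 dogs between the sets had a median between those of the 2 sets for 222 of the 228 higher and for 35 of the 37 lower genes. Without dog 7 the counts were 281 higher and 100 lower genes, and without dog 25 they were 240 and 57. Of the genes that dog 7 alone kept from being counted, 55 higher and 63 lower, this dog had a level within the range of the MKI67-high dogs in 40 and 39.

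The cell cycle genes followed MKI67 most closely, which is what a ranking by a proliferation gene selects. Of 68 measured G2 and mitosis genes 59 were higher, all 68 had a positive difference, and their median difference was 2.15. TOP2A, the topoisomerase that untangles DNA before division, had lowest, median and highest log2 levels of 7.75, 8.52 and 9.13 in MKI67-high dogs, against 4.53, 5.14 and 5.67 in MKI67-low dogs, a difference of 3.43. CCNA2 (cyclin A2), KIF11 and KIF23 (spindle and cytokinesis motors), NUF2 (a kinetochore subunit) and UBE2C (the ubiquitin-conjugating enzyme of the anaphase-promoting complex) differed by 3.23 to 3.41. Of 50 S phase and DNA replication genes 32 were higher, all 50 were positive, and the median difference was 1.28. CDC6, a loading factor of the replicative helicase, had levels of 7.32, 8.04 and 8.58 in MKI67-high dogs, against 5.14, 5.59 and 5.81 in MKI67-low dogs. DTL and E2F8, genes of replication licensing control and of E2F transcription, differed by 2.99 and 2.51. The genes whose order over the 21 diestrus dogs was most like that of MKI67 were TOP2A, CKAP2L, CCNA2, KNL1 and KIF23, each with a Spearman rho of 0.99, and the most opposite order was that of EPB41L4A (rho -0.93), GABRR3 (-0.92), TTC39A (-0.92), USP49 (-0.91) and N4BP2L1 (-0.91). These 21 points share 1 tissue and 1 array type, and GABRR3 lay at the low end of the scale, with levels of 1.88 to 3.17.

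Genes that hold cells out of the cycle showed no such pattern. None of 22 measured cell cycle inhibitor and quiescence genes was counted as higher or lower, 9 had a positive difference, and the median was -0.07. TXNIP, a glucose-responsive growth suppressor, had levels of 11.79, 11.99 and 12.62 in MKI67-high dogs, against 12.16, 13.03 and 13.09 in MKI67-low dogs, and the overlap came from dog 7 with 12.16. FOXO4, a forkhead factor that holds cells at rest, had levels of 6.73 to 7.08 in MKI67-high and 7.29 to 7.80 in MKI67-low dogs, without overlap. The inhibitors CDKN2C and CDKN1A were not lower, with differences of 0.66 and 0.44.

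Among 47 growth factors, growth factor receptors and D cyclins, 2 genes were higher, 2 were lower and the median difference was 0.01. CCND1, the D-type cyclin that couples growth signals to the cell cycle, had levels of 9.10, 9.63 and 9.93 in MKI67-high dogs, against 6.40, 7.16 and 8.69 in MKI67-low dogs. MYCL, a MYC-family transcription factor, had levels of 7.56, 8.48 and 8.95 in MKI67-high dogs, against 5.80, 6.12 and 6.86 in MKI67-low dogs. The 2 sets did not overlap in either gene, and the differences were 2.26 and 2.03. ERBB4, a receptor for neuregulins, ran the other way, with levels of 4.45, 4.97 and 5.46 in MKI67-high dogs, against 5.56, 6.61 and 8.12 in MKI67-low dogs. The other lower gene of this list was ERBB3, which was named after its values were seen. EGF, a ligand of the epidermal growth factor receptor, had levels of 4.20, 4.56 and 5.75 in MKI67-high dogs, against 4.20, 7.13 and 10.34 in MKI67-low dogs, and the sets overlapped because some low dogs were as low as the high ones. IGF1, a stromal growth factor of the uterus, differed by 0.67 with overlap.

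Ribosome biogenesis genes differed little each but mostly in 1 direction. No member of this list reached a 2-fold difference, 23 of 27 were positive, and the median was 0.24. The list mean was 7.77 to 7.97 in MKI67-high and 7.43 to 7.68 in MKI67-low dogs, without overlap. FBL and NOP56, core proteins of the complex that methylates ribosomal RNA, differed by 0.65 and 0.69, NOP2, another ribosomal RNA methyltransferase, by 0.67, and CAD, which starts pyrimidine synthesis, by 0.70, all without overlap between the sets.

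**Figure D2:**
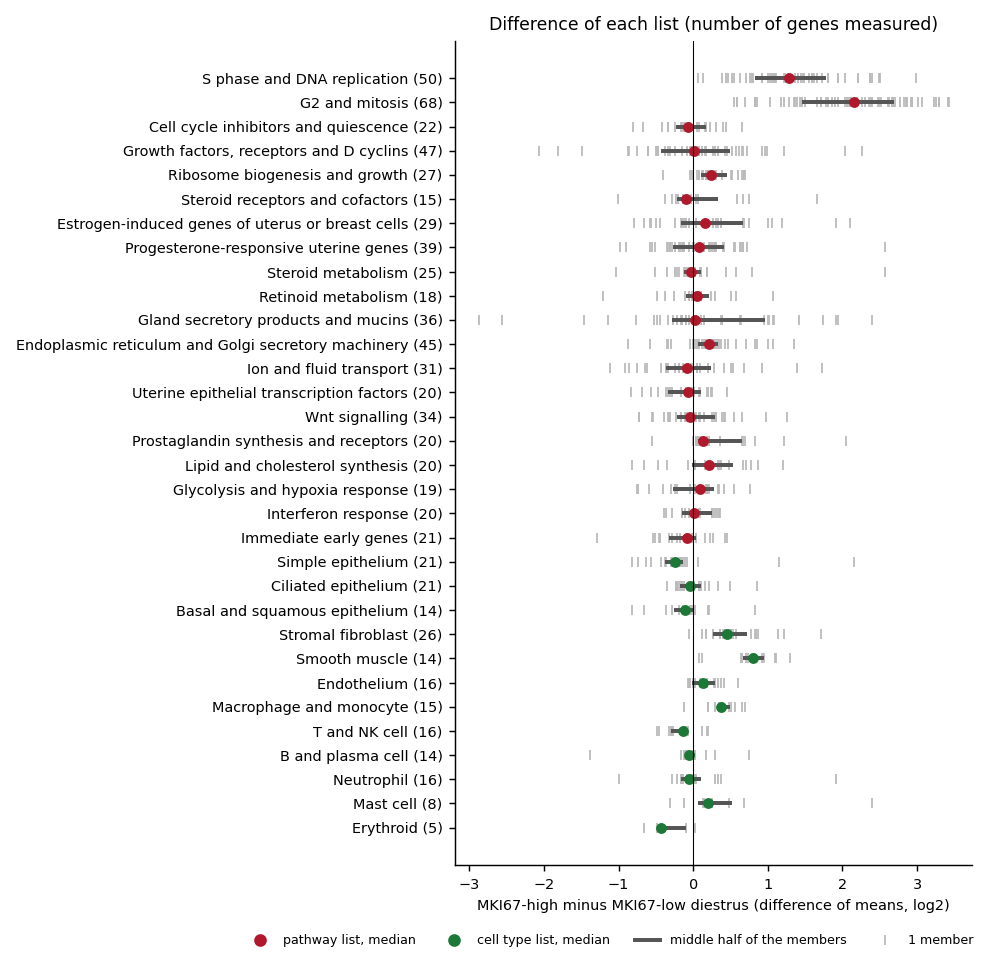
Difference of means between MKI67-high and MKI67-low diestrus (horizontal axis, log2) for every measured gene of 20 pathway lists and 12 cell type lists, with a grey tick for each gene, a dot at the list median and a bar over the middle of the distribution. The 2 cell cycle lists lie at medians of 1.28 and 2.15, smooth muscle and stromal fibroblast markers at 0.80 and 0.46, and the other lists between -0.43 and 0.38.

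The steroid hormone receptors differed less than the cell cycle genes. Of 15 measured receptors and cofactors 6 had a positive difference, the median was -0.10, and 1, NR3C2, was counted, which it was not without dog 25. Without dog 7 the median was 0.07 and GPER1 was counted as higher. ESR1 (estrogen receptor alpha) had levels of 11.01, 11.27 and 11.37 in MKI67-high dogs, against 10.67, 11.20 and 11.68 in MKI67-low dogs, a difference of 0.07 with full overlap. PGR, the progesterone receptor that estrogen induces, had levels of 9.67, 9.98 and 10.26 in MKI67-high dogs, against 8.59, 9.04 and 10.63 in MKI67-low dogs. The overlap in PGR rested on dog 7 alone, since the other 6 low dogs lay between 8.59 and 9.19, and the difference was 0.75 with this dog and 0.99 without it. NR3C2, the mineralocorticoid receptor, had levels of 7.74, 7.88 and 8.10 in MKI67-high dogs, against 8.38, 8.68 and 9.54 in MKI67-low dogs. GPER1, a membrane receptor for estrogen, differed by 1.66, and its overlap also ended without dog 7. ESR2 (estrogen receptor beta) had levels of 8.39, 9.93 and 10.59 in MKI67-high dogs, against 6.34, 11.17 and 11.48 in MKI67-low dogs, a difference of -0.10 that was -0.43 without dog 7 and -0.70 without dog 25. The prolactin receptor PRLR differed by 0.15, and the glucocorticoid receptor cochaperone FKBP5 by 0.66, with overlap. PAQR5, a membrane progestin receptor, had levels of 5.30, 5.54 and 5.90 in MKI67-high dogs, against 6.62, 7.14 and 9.60 in MKI67-low dogs, and was counted as lower.

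Hormone-induced gene lists were mixed. None of 29 estrogen-induced genes was counted (1 lower without dog 25), 16 were positive, and the median difference was 0.15. The list mean was 7.63 to 7.84 in MKI67-high and 7.26 to 7.75 in MKI67-low dogs, and without dog 7, whose mean was 7.75, the low dogs ended at 7.52 and the sets no longer overlapped. AGR2, a protein disulfide isomerase of mucous cells, differed by 2.10, the iron-binding secreted protein LTF by 1.91, the RAS-related growth inhibitor RERG by 1.19 and the glycoprotein hormone STC2 by 1.06, each with overlap. None of 39 progesterone-responsive genes was counted either, with 22 positive and a median of 0.08, or 19 and -0.00119 without dog 7. HSD17B2, which inactivates estradiol to estrone and is induced by progesterone in the human endometrium, had the largest difference of that list, with levels of 8.15, 9.81 and 10.97 in MKI67-high dogs, against 5.28, 7.09 and 8.60 in MKI67-low dogs. The stromal progesterone-responsive factor HAND2 differed by 0.56, the epithelial progesterone target IHH by -0.58, HOXA11 by 0.72, SGK1 by -0.98 and HHIP by -0.90, all with overlap. HOXA11 did not overlap without dog 25, with a difference of 0.78. In steroid metabolism none of 25 genes was counted, with a median of -0.03, a difference of -1.04 for the sulfotransferase SULT1D1 and of 0.79 for SULT1A1, which was counted as higher, with 1.10, without dog 7. In retinoid metabolism 1 of 18 genes was counted, with a list median of 0.05. This was DHRS3, which reduces retinaldehyde to retinol, with levels of 7.09, 7.57 and 7.87 in MKI67-high dogs, against 8.38, 8.68 and 9.28 in MKI67-low dogs.

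**Figure D3:**
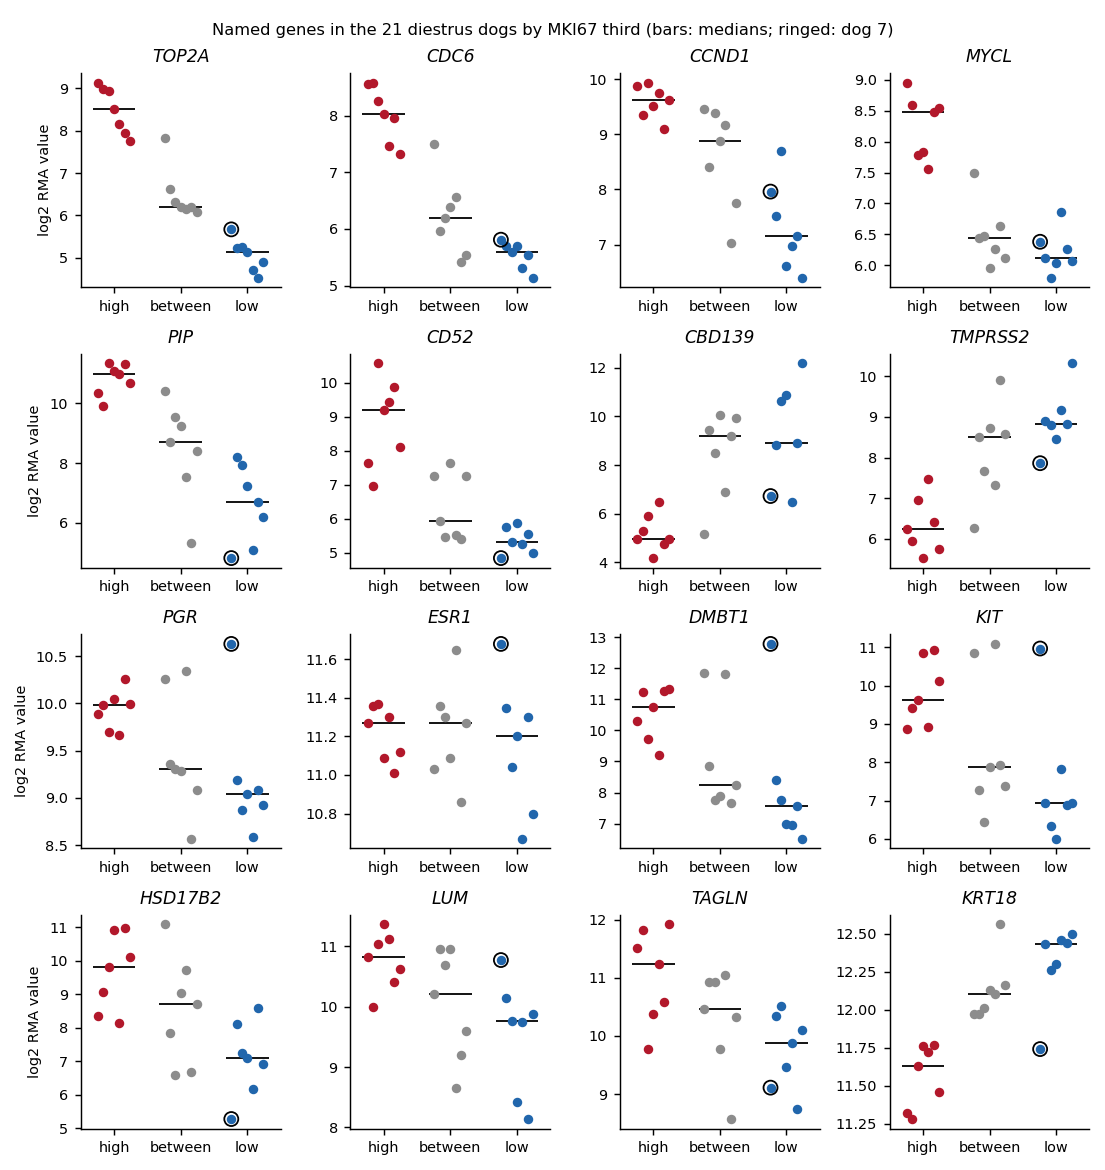
Log2 level (vertical axes) of 16 genes in each of the 21 diestrus dogs, by MKI67 set (high, between and low, 7 dogs each), with bars at the medians and a ring around dog 7. TOP2A, CDC6, CCND1, MYCL, PIP and CD52 are higher and CBD139 and TMPRSS2 lower in the high set without overlap, and the ringed dog 7 lies above every high dog in PGR, DMBT1 and KIT.

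Outside the 2 cell cycle lists, GPHA2, PIP and CD52 had the largest positive differences without overlap. PIP, a secreted glycoprotein of apocrine glands that prolactin induces in human breast cells, had levels of 9.90, 10.97 and 11.34 in MKI67-high dogs, against 4.82, 6.69 and 8.22 in MKI67-low dogs, a difference of 4.21 (18.5-fold). The probe set annotated as GPHA2, a glycoprotein hormone subunit, had levels of 8.71, 12.88 and 13.33 in MKI67-high dogs, against 6.68, 6.94 and 7.73 in MKI67-low dogs, a difference of 5.12 and the largest among genes without overlap between the sets. Dog 148 had the 8.71, and the other 6 high dogs lay at 12.14 or above. The identity of that probe set is uncertain, because its gene identifier is not in the RefSeq table used here and the second probe set with the GPHA2 symbol differed by -0.09. CD52, a small surface glycoprotein of lymphocytes and of male genital tract epithelium, had levels of 6.98, 9.21 and 10.57 in MKI67-high dogs, against 4.85, 5.32 and 5.89 in MKI67-low dogs. The mean of the T and NK cell list was 4.94 to 5.50 in MKI67-high and 4.95 to 5.60 in MKI67-low dogs. That of the B and plasma cell list was 5.64 to 5.90 and 5.68 to 6.14. Which cells carried the CD52 difference was not tested. GPR18, a lipid-sensing receptor named after its values were seen, had the largest positive difference of all genes, 5.24, with levels of 5.43, 9.93 and 11.61 in MKI67-high dogs, against 2.99, 4.77 and 6.25 in MKI67-low dogs, and the sets overlapped.

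Antimicrobial and mucosal defence proteins lay on both sides. CBD139, a canine beta-defensin, had levels of 4.18, 4.95 and 6.47 in MKI67-high dogs, against 6.49, 8.92 and 12.18 in MKI67-low dogs, a difference of -4.02. DEFB1, another defensin, had levels of 5.19, 6.22 and 8.36 in MKI67-high dogs, against 5.60, 10.13 and 11.35 in MKI67-low dogs, and AZGP1, a secreted zinc-binding glycoprotein, differed by -2.56. DMBT1, a mucosal scavenger receptor protein, had levels of 9.20, 10.76 and 11.32 in MKI67-high dogs, against 6.52, 7.56 and 12.78 in MKI67-low dogs, and the highest value of all was that of dog 7. Without dog 7 the sets did not overlap in DEFB1, with a difference of -3.53, or in DMBT1, with 3.17. WFDC2, a secreted protease inhibitor of the genital tract, differed by 1.94 with overlap. Over the whole list of 36 gland secretory products and mucins the median difference was 0.02 and 19 were positive, and ENPP3, an ectonucleotidase named here after its values were seen, was counted as higher. Without dog 25 the median was 0.25 and 23 were positive, and without dog 7 the list had 2 higher genes and 1 lower.

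Dog 7 was not alone in its high PGR, DMBT1 and KIT levels. The 2 dogs 122 and 84 of the set between had similar levels of these genes. For DMBT1 dog 7 had 12.78, and dogs 122 and 84 had 11.85 and 11.82. For PGR the levels were 10.63 in dog 7, 10.26 in dog 122 and 10.34 in dog 84. KIT, a receptor tyrosine kinase of mast cells and germ cells, had levels of 10.97, 10.86 and 11.09 in these dogs. High PGR, DMBT1 and KIT levels were therefore also seen at MKI67 levels of 6.74, 8.95 and 7.29.

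In the secretory machinery, none of 45 endoplasmic reticulum and Golgi genes was counted, 38 were positive, and the median difference was 0.21. The list mean was 9.60 to 10.24 in MKI67-high and 9.02 to 9.92 in MKI67-low dogs, the lowest of them dog 25, and without this dog 33 genes were positive and the median was 0.10. The chaperones and folding factors PDIA4, MANF and CRELD2 differed by 1.34, 1.07 and 1.00, and SEL1L, of the degradation pathway, by -0.87, all with overlap, and without dog 25 SEL1L was counted as lower, with -1.07. In ion and fluid transport none of 31 genes was counted and the median was -0.09, or 0.01 without dog 25. SLC5A1, a sodium-glucose cotransporter, differed by 1.72 and the phosphate transporter SLC34A2 by 1.39. The proton pump gene ATP12A differed by -1.11 because of dog 25 alone, with 10.96 against 4.60 or less in the other low dogs, and dog 152 of the set between had 9.11. The difference of 0.92 in AQP9, a glycerol channel, came from dog 7, with 4.15 against 9.15 to 12.49 in the other low dogs.

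Among the genes lower in MKI67-high diestrus, TMPRSS2, a membrane serine protease, had levels of 5.52, 6.24 and 7.47 in MKI67-high dogs, against 7.86, 8.82 and 10.32 in MKI67-low dogs, a difference of -2.58. VIL1 (villin, of microvilli) differed by -2.21, the riboflavin transporter SLC52A3 by -2.59, the peptidase NAALAD2 by -2.31, the complement regulator chain C4BPB by -2.04, the orphan receptor GPRC5B by -1.83 and CA8, a carbonic anhydrase-related protein, by -1.76, all without overlap. Within the simple epithelium list 3 of 21 genes were positive, none was counted, and the median was -0.24. KRT18, a keratin of glandular epithelium, had levels of 11.28, 11.63 and 11.77 in MKI67-high dogs, against 11.74, 12.43 and 12.50 in MKI67-low dogs, with dog 7 as the lowest of the low dogs. Without dog 7 the sets did not overlap in KRT18, with a difference of -0.84. The tight junction gene TJP3 differed by -0.82 without overlap, while KRT19 and CLDN10 differed by 1.15 and 2.15 with overlap (3.07 for CLDN10 without dog 7).

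Transcription factors and Wnt genes of the uterine epithelium showed small differences. None of 20 epithelial transcription factors was counted, the median was -0.07, and MSX2, PAX8 and ELF3 differed by -0.83, -0.68 and -0.57. Without dog 25 these values were -1.28 for MSX2 and -0.34 for ELF3. FOXA2, which is needed for uterine glands in mice, differed by -0.33. Of 34 Wnt genes none was counted, with a median of -0.04. AXIN2, a feedback target of the pathway, and LGR5 differed by -0.73 each, and the stromal signals RSPO3 and SFRP1 by 1.26 and 0.97. AXIN2 did not overlap without dog 7, with a difference of -0.86. In ciliated epithelium the median over 21 genes was -0.04, and in basal and squamous epithelium it was -0.11 over 14, with none counted in either.

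Prostaglandin and lipid genes tended to positive differences. In the prostaglandin list 18 of 20 genes were positive, with a median of 0.14. SLCO2A1, the carrier that takes up prostaglandins, was the only member counted, with levels of 6.60, 8.45 and 9.09 in MKI67-high dogs, against 5.25, 6.23 and 6.47 in MKI67-low dogs. AKR1B1, PTGER3 and PTGER4 differed by 1.21, 0.83 and 0.70 with overlap, and PTGER4 by 0.45 without dog 7. In lipid and cholesterol synthesis 15 of 20 genes were positive, with a median of 0.22 (0.13 without dog 25) and none counted, and the fatty acid elongase ELOVL6 differed by 1.21, and by 1.36 and without overlap when dog 7 was left out. DHCR7, the last enzyme of cholesterol synthesis, differed by 0.86 and the lipid droplet coat protein PLIN2 by -0.83, both without overlap. Glycolysis and hypoxia genes had a median of 0.09 over 19, with -0.75 for VEGFA, interferon response genes 0.02 over 20, and immediate early genes -0.08 over 21 (0.01 without dog 7), with -1.30 for ATF3, and no gene of these 3 lists was counted.

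Markers of stroma and smooth muscle were higher in MKI67-high dogs nearly throughout, by less than 2-fold or with overlap. Of 26 stromal fibroblast markers 25 were positive, with a median of 0.46, and the list mean was 9.06 to 9.72 in MKI67-high and 8.38 to 9.24 in MKI67-low dogs. LUM (lumican, a collagen-binding proteoglycan) had levels of 9.99, 10.82 and 11.36 in MKI67-high dogs, against 8.14, 9.77 and 10.77 in MKI67-low dogs, and THY1, a fibroblast surface protein, did not overlap, at 7.76 to 8.66 in MKI67-high and 6.69 to 7.62 in MKI67-low dogs. The matrix proteins POSTN and OGN differed by 1.71 and 1.14. All 14 smooth muscle markers were positive, with a median of 0.80 and a list mean of 8.88 to 10.30 in MKI67-high and 8.21 to 9.58 in MKI67-low dogs. TAGLN, an actin-binding protein of smooth muscle, had levels of 9.78, 11.24 and 11.92 in MKI67-high dogs, against 8.74, 9.87 and 10.51 in MKI67-low dogs. The part of the stromal and muscle content of the samples in the other differences was not tested.

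Blood, vessel and immune cell markers differed among themselves. Macrophage markers were positive in 14 of 15 genes, with a median of 0.38 and a list mean of 5.98 to 7.25 in MKI67-high and 5.67 to 6.27 in MKI67-low dogs. The medians were 0.13 for 16 endothelial, -0.14 for 16 T and NK cell, -0.05 for 14 B and plasma cell and -0.06 for 16 neutrophil markers. The endothelial value turned on single low dogs, with 11 of 16 genes positive in all, and 15 of 16 and a median of 0.26 without dog 7, or 0.24 without dog 25. Neutrophil markers had a median of 0.02 without dog 25. In the mast cell list the median over 8 genes was 0.20, and KIT, with levels of 8.88, 9.63 and 10.93 in MKI67-high dogs, against 6.01, 6.94 and 10.97 in MKI67-low dogs, stood out by 2.40. The mast cell markers CPA3, FCER1A and HDC differed by 0.68, 0.47 and -0.31, and HDC by -0.14 without dog 7. The mast cell list mean was 5.59 to 6.25 in MKI67-high and 5.26 to 5.96 in MKI67-low dogs. Without dog 7, which had the 5.96, the low dogs ended at 5.57, just under the high dogs. This narrow gap included KIT, which ended at 7.83 in the low dogs without dog 7. CPA3, FCER1A and HDC still overlapped without dog 7, and the list mean without KIT was not examined. The 5 erythroid genes had a list mean of 3.81 to 3.99 in MKI67-high and 4.06 to 4.46 in MKI67-low dogs, without overlap, at the low end of the scale, and their part in the other differences was not tested. BLNK and CEACAM1, which epithelia also express, had median levels of 7.23 and 8.49 in MKI67-high dogs, against 8.71 and 9.40 in MKI67-low dogs, and only CEACAM1 did not overlap. Without dog 7 BLNK was counted as lower, with -1.60, and KIT as higher, with 2.99. CEACAM1 was counted as lower without dog 7, with -1.07, and without dog 25, with -1.06.

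The relation to MKI67 was then tested in dogs that the ranking had not used. In the 31 dogs with CEH or mucometra, the slope of each gene on MKI67 (log2 units per log2 unit) was fitted with limma with the diagnosis as a covariate, and a gene was called at a Benjamini-Hochberg adjusted p under 0.05 over all 15946 genes and a slope of at least 0.5 in size. Cycle stage and earlier progesterone treatment, which differed among these dogs, were not in the fit. Their part in the slopes was not tested. With both thresholds, 46 genes (0.288%) were called with a positive slope and 3 (0.0188%) with a negative slope. Of the 228 genes higher in MKI67-high diestrus, 221 had a positive slope, with a median of 0.29, and 43 were called. Without any demand on the size of the slope 165 of these 228 genes passed the adjusted p. Of the 37 lower genes 36 had a negative slope, with a median of -0.19. None of them was called in limma or in limma with a robust variance trend, 4 passed the adjusted p with a negative slope below that size, and 20 had an unadjusted p under 0.05.

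Cell cycle genes made up most of these calls. TOP2A rose with MKI67 in CEH and mucometra with a slope of 0.95 ± 0.05 (SE, limma adjusted p = 1.1e-15), and 30 of 68 G2 and mitosis and 3 of 50 S phase genes were called. With a positive slope of any size, 60 G2 and mitosis and 35 S phase genes passed the adjusted p. Outside the 2 lists 13 genes rose and 3 fell, and several of the 13, such as KNL1 of the kinetochore and the histone chaperone ASF1B, also serve cell division. CCND1 had a slope of 0.36 ± 0.10 (adjusted p = 0.0508) and missed both thresholds. MYCL had a slope of 0.32 ± 0.06 (adjusted p = 0.000837), under the size demanded, and an adjusted p of 0.0541 without CEH dog 127, the dog with the highest MKI67 level of the 31.

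Of the secreted proteins, DMBT1 rose with MKI67 in these 31 dogs with a slope of 0.68 ± 0.19 (limma adjusted p = 0.0426). This call was kept in 16 of 31 fits that left out 1 dog each. The GPHA2 probe set had a slope of 0.53 ± 0.15 (adjusted p = 0.0461), which was kept in 14 of 31 such fits, and its slope was -0.07 in the mucometra dogs alone. PIP had a slope of 0.59 ± 0.18 (adjusted p = 0.0638) and CBD139 of -0.50 ± 0.24 (adjusted p = 0.326), so neither passed. CD52, with a slope of 0.16 (adjusted p = 0.218), and TMPRSS2, with -0.33 (adjusted p = 0.343), did not pass either. PGR had a slope of 0.16 (adjusted p = 0.189) and ESR1 of 0.13 (adjusted p = 0.305).

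Over the other 18 pathway lists, 1 of 455 genes in neither cell cycle list, DMBT1, was called. Of these 455 genes 18 passed the adjusted p with a positive and 7 with a negative slope of any size. They included DHCR7, with a slope of 0.25 (adjusted p = 0.00773), SQLE of cholesterol synthesis with 0.25 (adjusted p = 0.0219), FBL with 0.14 (adjusted p = 0.0122), HSD17B12 with 0.21 (adjusted p = 0.00142) and, on the negative side, NR3C2 with -0.19 (adjusted p = 0.0412) and PLIN2 with -0.17 (adjusted p = 0.0231). NR3C2 kept an adjusted p under the threshold in 16 of 31 fits that left out 1 dog each, and without CEH dog 127 the adjusted p was 0.0816 for DHCR7, 0.134 for SQLE, 0.138 for NR3C2 and 0.23 for PLIN2. None of 186 cell type markers in neither cell cycle list was called in limma with or without the robust variance trend. With a slope of any size, 1 of them passed the adjusted p with a positive and 3 with a negative slope. At an unadjusted p under 0.05, 3 had a positive and 10 a negative slope. The stromal fibroblast and smooth muscle markers had median slopes of 0.01 and 0.05 in these dogs.

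**Figure D4:**
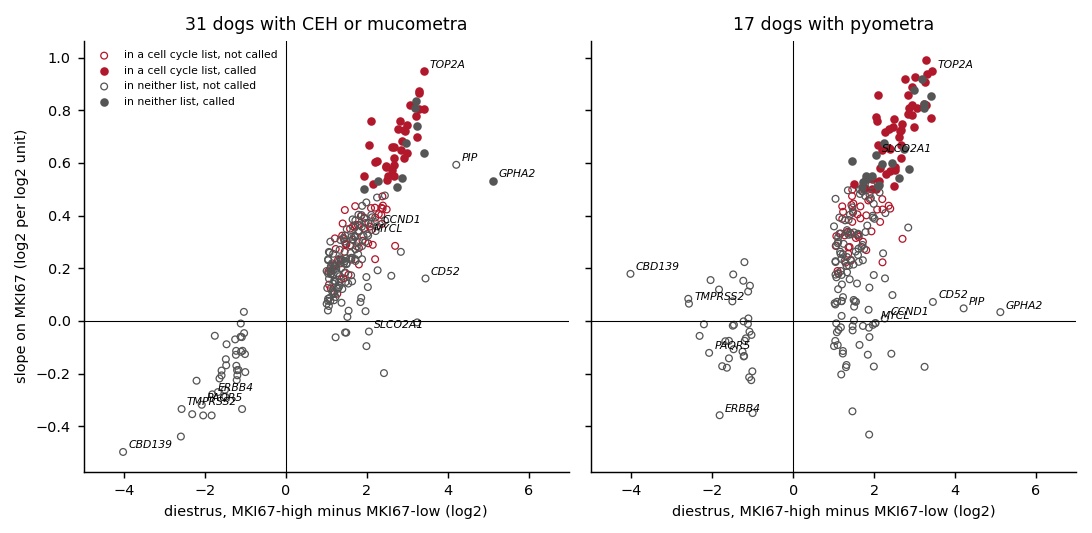
Slope on MKI67 (vertical axis, log2 units per log2 unit) in the 31 dogs with CEH or mucometra and in the 17 dogs with pyometra, against the MKI67-high minus MKI67-low difference in diestrus (horizontal axis, log2), for the 228 higher and 37 lower genes of diestrus. Cell cycle genes are red, other genes grey, and called slopes filled, and the called slopes lie among the genes higher in MKI67-high diestrus.

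In the 17 dogs with pyometra the same fit, without a covariate, called 193 genes higher (1.21%) and 31 lower (0.194%). Of the 228 genes higher in MKI67-high diestrus 201 had a positive slope, with a median of 0.35, and 67 were called. Of the 37 lower genes 25 had a negative slope, with a median of -0.05. None was called in limma with or without the robust variance trend. With a slope of any size, 5 of the 37 passed the adjusted p with a negative and 1 with a positive slope. At an unadjusted p under 0.05, 6 had a negative and 4 a positive slope. TOP2A rose with a slope of 0.95 ± 0.05 (SE, limma adjusted p = 1.47e-09), and 41 G2 and mitosis and 7 S phase genes were called. With a positive slope of any size, 67 G2 and mitosis and 39 S phase genes passed the adjusted p. CCND1 and MYCL had slopes of 0.01 and -0.01, PIP of 0.05 and GPHA2 of 0.03, none past the threshold. CBD139, lower in MKI67-high diestrus, had a positive slope of 0.18 in pyometra (limma adjusted p = 0.0281), under the size demanded. Its mean level in pyometra was 4.82, and the adjusted p stayed under the threshold in 15 of 17 fits that left out 1 dog each. SLCO2A1 rose with MKI67 by 0.63 ± 0.12 (adjusted p = 0.00133). NR3C2, lower in MKI67-high diestrus, had a slope of -0.35 ± 0.07 (limma adjusted p = 0.00278), under the size demanded. The adjusted p of NR3C2 stayed under the threshold in 17 of 17 fits that left out 1 dog each. Markers of infiltrating cells rose with MKI67 in pyometra as well. Called were 9 of 16 neutrophil, 5 of 15 macrophage, 5 of 14 B and plasma cell and 1 of 16 T and NK cell markers. Their part in the other pyometra slopes was not tested. The study counts most pyometra dogs as given progesterone compounds earlier and reports expression differences between treated and untreated pyometra. This treatment and the cycle stage were not in the fit, and their part in the pyometra slopes was not tested.

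The slope in pyometra minus that in CEH and mucometra was tested directly in the 48 diseased dogs. This fit had no term for earlier progesterone treatment or cycle stage. With the same 2 thresholds, the difference was called higher in 126 genes (0.79%) and lower in 20 (0.125%), and no gene of the 2 cell cycle lists was among them. For TOP2A the slopes differed by -0.000875 ± 0.07 (SE, limma adjusted p = 0.996). For SLCO2A1, with slopes of 0.63 in pyometra and -0.04 in CEH and mucometra, the difference was 0.67 ± 0.17 (adjusted p = 0.012). For ESR1 the slopes were -0.41 and 0.13, a difference of -0.54 ± 0.13 (adjusted p = 0.0111). NR3C2 had slopes of -0.35 and -0.19, and the difference of -0.16 ± 0.09 did not pass (adjusted p = 0.305). DEFB1 had slopes of 0.63 in pyometra and -0.89 in CEH and mucometra, neither past the threshold on its own, and the difference was 1.52 ± 0.43 (adjusted p = 0.0296). The differences were -0.33 ± 0.09 for MYCL (adjusted p = 0.0234, under the size demanded, and -0.19 with an adjusted p of 0.181 without CEH dog 127), -0.35 ± 0.14 for CCND1 (adjusted p = 0.133) and -0.57 ± 0.27 for DMBT1 (adjusted p = 0.211).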

How the data were processed

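The authors deposited log2 expression values of 1 Affymetrix Canine Gene 1.0 ST array per dog, after RMA background correction and quantile normalization (RMA version not given in the sources used here), so p-values measure the spread between dogs. From 32391 probe sets, 16545 with 1 symbol, 370 with several and 15476 with none, 15947 genes were formed by the probe set with the highest mean over the 69 arrays (598 set aside), and 15937 are in the RefSeq table. MKI67 was left out of the 15946 genes tested. No diestrus arrays were duplicates: the closest pair, dogs 97 and 144, differed with an SD of 0.405, against 0.607 for the median pair. The arrays of the diseased dogs were not compared in this way. For arrays their number limits the precision.

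Members and lists (32 lists, 20 of pathways and 12 of cell types, 755 of 827 genes measured) were chosen with earlier results of these data known. Named genes were MKI67, ESR1, ESR2, PGR, PRLR, HAND2, IHH, FOXA2 and IGF1, the 10 largest differences in each direction without overlap, the 5 highest and 5 lowest Spearman rho and up to 4 genes of each list, others being named after their values were seen. Slopes were fitted with limma 3.58.1 in R 4.3.3, tested on simulated data, with Python 3.11.15 and matplotlib 3.10.9 for the rest. The mucometra group follows the sample titles, not the Hemometra diagnosis label. Alternatives were the mean of all probe sets, genes above the median level, array centring, 5 or 10 dogs per set, the G2 and mitosis list as covariate, no slope filter, robust trended variances, other diagnosis terms and, chosen after seeing the data, each dog left out.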

Additional observations from a re-analysis of the deposited data

Results flagged for a closer look

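Among 310 sets of 7 dogs (MKI67-high or MKI67-low, for each of the named genes), 32 held 1 dog whose gap to the nearest other dog was a larger share of the whole range than Dixon's critical value for 7 dogs. For independent values with a normal spread, chance flags about 1 in 20 such sets. The sets here share the same dogs, and many of the named genes were picked by large differences. The 32 therefore cannot be weighed against that rate. In MKI67-low diestrus dog 7 was that dog 16 times. It was high, against the range of the other 6 low dogs, in PGR (10.63, others 8.59 to 9.19), DMBT1 (12.78, others 6.52 to 8.39), KIT (10.97, others 6.01 to 7.83), CLDN10 (12.33, others 5.52 to 6.66), SLC5A1 (9.96, others 4.21 to 4.96), SULT1A1 (10.96, others 8.31 to 9.01), UHRF1 (7.27, others 5.69 to 6.14), SPAG6 (6.57, others 4.69 to 5.39) and ALAS2 (6.12, others 3.58 to 4.37). It was low in NAALAD2 (6.28, others 8 to 9.08), C4BPB (5.06, others 6.47 to 7.18), TXNIP (12.16, others 12.91 to 13.09), AQP9 (4.15, others 9.15 to 12.49), AXIN2 (7.33, others 8.02 to 8.39), EGLN3 (6.56, others 8.58 to 9.23) and KRT18 (11.74, others 12.26 to 12.50).

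Dog 25 of MKI67-low diestrus was far above the other low dogs in ATP12A (10.96, others 4.09 to 4.60), ELF3 (8.78, others 6.97 to 7.63) and NDRG1 (10.1, others 6.71 to 7.98), and below them in DHCR7 (7.09, others 7.74 to 8.21) and JCHAIN (7.79, others 8.43 to 8.91). Dog 119 was high in KLRK1 (5.45, others 4.34 to 4.72).

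In MKI67-high diestrus dog 30 was high in the interferon response genes MX2 (7.72, others 5.71 to 6.56) and IFI44L (7.38, others 5.29 to 6.15), in the macrophage receptor MRC1 (8.09, others 6.28 to 6.95) and in IL1R2 (5.07, others 4.05 to 4.34). Dog 110 was high in the immediate early genes DUSP1 (11.23, others 8.95 to 9.68) and NR4A1 (10.21, others 6.68 to 7.51). Dog 148 was low in GPHA2 (8.71, others 12.14 to 13.33) and high in NOP2 (8.59, others 7.48 to 7.78), dog 118 was high in CA1 (4.17, others 3.33 to 3.68) and dog 141 was low in AHSP (2.14, others 2.73 to 3.16).

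For 10 named genes the slope on MKI67 differed between pyometra and the CEH and mucometra dogs by the interaction test in limma. The slope in pyometra minus that in CEH and mucometra was 1.52 for DEFB1, 1.48 for ATP12A, 0.80 for POU2AF1, 0.69 for MS4A7, 0.67 for SLCO2A1, 0.67 for DERL3, 0.51 for FCER1G and 0.50 for PLIN2, and it was -0.60 for RERG and -0.54 for ESR1. Leaving out each of the 48 dogs in turn kept all of these calls for SLCO2A1 and ESR1, 47 for RERG, 46 for POU2AF1, 45 for DERL3, 44 for MS4A7, 43 for DEFB1, 40 for FCER1G, 33 for ATP12A and 30 for PLIN2.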

How the results depend on the processing

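Genes higher in MKI67-high diestrus numbered 228, but 59 among genes above the median level and 48 with 10 against 10 dogs. Lower genes numbered 37, but 126 with 5 against 5 dogs and 2 with 10 against 10. With the mean of all probe sets, with arrays centred on their medians and with the ranking by the G2 and mitosis list, both counts stayed within 1.5 times. Leaving out each dog gave 225 to 281 higher and 35 to 100 lower genes, 100 without dog 7 and 57 without dog 25. In CEH and mucometra 46 slopes were called higher, but 7 among genes above the median level, 195 with the list as covariate, 391 with no filter on the slope and 21 in mucometra alone (40 to 48 leaving out each dog). The 3 lower slopes became 43 with the list, 111 with no filter, 10 without the diagnosis covariate, 1 in CEH alone and 0 in mucometra alone, where limma gave 7 lower slopes at an unadjusted p under 0.05. Leaving out each dog gave 1 to 6 of these, 1 without CEH dogs 81, 162, 180 or 226 or mucometra dog 210, 6 without CEH dog 208 and 5 without mucometra dog 188. In pyometra 193 higher slopes became 36, 516 and 1518 for genes above the median level, the list and no filter (169 to 241 leaving out each dog), and 31 lower ones 19, 206 and 1197 (25 to 62, with 62 without dog 225). Slope differences numbered 126 higher and 20 lower, or 39 and 13 above the median level. Leaving out each dog gave 77 (without CEH dog 127) to 167 and 13 (without CEH dog 127 or pyometra dogs 100 or 198) to 49 (without pyometra dog 225). The median filter leaves fewer genes, and the list mean, with an SD of 0.614 against 1.27 for MKI67 in CEH and mucometra, gives larger slopes per unit. The cause of the other moves was not tested. The GPHA2 difference in diestrus was 2.52 with the mean of its probe sets and its slope in CEH and mucometra of 0.53 turned to -0.0729 in mucometra alone. No paired analysis was possible because no case number pairs dogs between the groups compared. Array values carry no read depth, and the number of arrays limits the precision.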
